A study of Homo sapiens with 4 samples.

Results

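The insulin-like growth factor binding proteins IGFBP2, IGFBP3, IGFBP4, IGFBP5, IGFBP6 and IGFBP7 were followed in the single-cell transcriptomes of a human colonic epithelial line after knockdown of APC. They were chosen by gene symbol, and they are 6 of the 33538 genes counted. The line, HCEC 1CT, was made immortal by TERT and CDK4 and is an established line. It received either a short hairpin RNA against APC, the tumour suppressor that holds β-catenin in check (shAPC), or a scrambled hairpin (shScr), and the cells were taken 3 or 7 days after transduction, with puromycin in the medium. Each of the 4 groups held 1 library. Where 4 values follow each other in that order, the day 3 pair comes first and shScr comes before shAPC. All of them grew in the same medium, which contained EGF, hydrocortisone, insulin, transferrin, selenite and serum, and APC was targeted with a single hairpin sequence in a single line, so that an effect of that hairpin on other transcripts cannot be told apart from the loss of APC.

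IGFBPs are secreted proteins that hold IGF1 and IGF2, the insulin-like growth factors, outside the cell and thereby set how much ligand reaches IGF1R, the receptor through which IGFs drive growth and survival. IGFBP2 to IGFBP6 bind the ligands tightly, IGFBP6 with a preference for IGF2, whereas IGFBP7 binds them weakly and is better known as a protein of the extracellular matrix. In the gut, IGFs made by stromal cells act on the epithelium, and proteases such as PAPPA release them again by cutting the binding proteins.

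Each value is the sum of UMIs, or distinct molecules, of a gene over the kept cells of a library, scaled to a total of 1000000 UMIs (CPM), with the exact Poisson 95% interval. With 1 library per group there is no replicate check and no test between groups, and every interval covers counting error only. The intervals of levels and ratios treat UMIs as independent and leave out the variation between cells. The kept cells numbered 788 to 2600 per library and held 28451455 to 39797418 UMIs. The median depth of a cell was 35109 UMIs in shScr day 3, 49685.5 in shAPC day 3, 1330 in shScr day 7 and 21029.5 in shAPC day 7, and 1402 of the 2600 kept cells of shScr day 7 lay under 2000 UMIs. APC itself stood at 16.1 and 5.52 CPM in shScr and shAPC at day 3 and at 19.1 and 6.61 CPM at day 7, which are log2 ratios of -1.54 (-1.78 to -1.31) and -1.53 (-1.78 to -1.29). Markers of colonic epithelium were nearly absent from all 4 libraries. KRT20 and CDX2 had 0 UMIs in each, CDH1, EPCAM and VIL1 had at most 2, and the list of 9 epithelial markers summed to at most 49.3 CPM, through KRT8, KRT18, KRT19 and CLDN7. The 9 mesenchymal markers were all detected and summed to 9067 to 11632 CPM. Of endothelial and immune markers, CD68 stood at 17.4 to 29.6 CPM, and PECAM1, VWF, CDH5, PTPRC and CD3E at no more than 5 UMIs together in any library.

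Of the 6 genes, 5 had a RefSeq promoter entry, and the 60 bases before the start site are shown to set the start of the member with next to no transcript (IGFBP5) beside those of members with plenty. They read 5′ to 3′ on the strand of the gene (GRCh38), and capitals mark TATANA or TATTTA, letters of the kind a TATA box has.
IGFBP2, chr2:216633360-216633419, plus strand: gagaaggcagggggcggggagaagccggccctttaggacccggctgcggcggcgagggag
IGFBP3, chr7:45921273-45921332, minus strand: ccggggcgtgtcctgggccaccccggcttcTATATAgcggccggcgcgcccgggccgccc
IGFBP4, chr17:40443390-40443449, plus strand: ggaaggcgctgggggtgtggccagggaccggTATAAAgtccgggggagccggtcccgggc
IGFBP5, chr2:216695550-216695609, minus strand: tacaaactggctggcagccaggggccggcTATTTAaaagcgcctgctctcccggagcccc
IGFBP6, chr12:53097607-53097666, plus strand: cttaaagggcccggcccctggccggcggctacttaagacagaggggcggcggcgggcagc
IGFBP3 and IGFBP4 held TATANA and IGFBP5 held TATTTA, each beginning 29 to 31 bases before the start, while the windows of IGFBP2 and IGFBP6 held neither. Searched on this strand in the same 60 bases of 35116 promoters, TATANA was found in 4.48% and TATTTA in 1.35%. G and C made up 63.3% of the IGFBP5 window and 73.3% to 80.0% of the other 4. CTTTGA, a form of the core letters bound by the TCF and LEF partners of β-catenin, occurred on neither strand in the 300 bases around the start of these 5 genes. It occurred in 12.9% of all promoters of that length, and other forms of the core were not searched. For IGFBP2, which has 3 start sites in the table, the one at the GENCODE canonical start was used. A match or its absence in these windows describes letters only.

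IGFBP5, a binder of IGFs and of the matrix, was at the limit of detection. It had 1 UMI in shScr day 3, 2 in shAPC day 3, 5 in shScr day 7 and 9 in shAPC day 7, which is 0.0251, 0.0572, 0.16 and 0.316 CPM. Its neighbour IGFBP2 lies 7668 bases away on chromosome 2 (IGFBP2 at 216632828 to 216664436 on the plus strand, IGFBP5 at 216672105 to 216695549 on the minus strand, hg38) and had 852 to 3777 UMIs in the same libraries. The log2 ratio of IGFBP5 between shAPC and shScr at day 7 was 0.98 with an interval from -0.75 to 2.91, so a difference was not detectable at this depth, and at day 3 both libraries were at or under 3 UMIs. From day 3 to day 7 in shAPC the ratio was 2.47 (0.19 to 5.72), which rests on 2 and 9 UMIs. The other 5 genes exceeded 20 CPM in every library, and the comparisons below rest on them.

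IGFBP2, a tight binder that also docks to integrins, had its highest level in shScr day 3, at 94.9 CPM (91.9 to 98.0). It stood at 76.7 CPM (73.8 to 79.6) in shAPC day 3, at 56.5 CPM (53.9 to 59.2) in shScr day 7 and at 29.9 CPM (28.0 to 32.0) in shAPC day 7. No 2 of the 4 intervals overlapped.

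IGFBP3 (chromosome 7 at 45912245 to 45921874) is the main IGF carrier of the blood and a known p53 target. Its levels were 113 CPM (109.5 to 116) in shScr day 3, 91.9 CPM (88.8 to 95.2) in shAPC day 3, 104 CPM (101 to 108) in shScr day 7 and 71.4 CPM (68.3 to 74.6) in shAPC day 7. The shAPC library was thus the lower one at both days, and the 2 shScr libraries were the closest pair.

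IGFBP4 (chromosome 17 at 40443450 to 40457725) is the substrate of the protease PAPPA. It was at 318 CPM (312 to 323), 282 CPM (276 to 287), 237 CPM (232 to 242) and 220.1 CPM (215 to 226) in that order, and the 4 levels lay closer together than those of the other 4 genes when measured as the fold from lowest to highest.

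IGFBP6 (chromosome 12 at 53097436 to 53102345), which favours IGF2, was highest in shAPC day 3. Its levels were 327 CPM (321 to 333) in shScr day 3, 475 CPM (468 to 483) in shAPC day 3, 320.2 CPM (314 to 327) in shScr day 7 and 201 CPM (196 to 206) in shAPC day 7. Only the 2 shScr libraries overlapped in their intervals.

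IGFBP7 (chromosome 4 at 57030773 to 57110385), the weak binder, was the most abundant member in each of the 4 libraries. It stood at 363 CPM (358 to 369) in shScr day 3, 512 CPM (505 to 519.7) in shAPC day 3, 594 CPM (585 to 602) in shScr day 7 and 337 CPM (329.9 to 343) in shAPC day 7. The highest and the lowest level were those of the 2 day 7 libraries. The transcript on its other strand, IGFBP7-AS1, had at most 2 UMIs in a library.

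Within a library, a 3′ UMI count gives 1 tag per captured molecule whatever the length of the transcript, so the 6 genes could be ranked on the CPM scale. The order was IGFBP7, IGFBP6, IGFBP4, IGFBP3, IGFBP2, IGFBP5 in both day 3 libraries and in shScr day 7, with IGFBP6 and IGFBP4 overlapping in their intervals in shScr day 3. In shAPC day 7, IGFBP4 stood above IGFBP6. The share of IGFBP7 among the UMIs of the family was 29.9% and 35.6% in shScr and shAPC at day 3, and 45.3% and 39.2% at day 7.

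**Figure D1:**
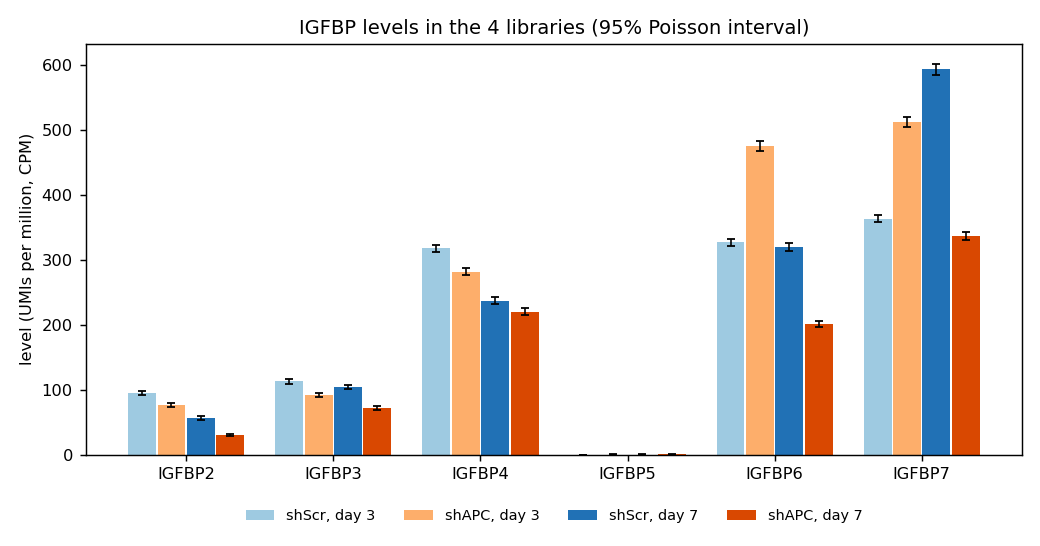
Level of each IGFBP in CPM (y axis, linear from 0) in the 4 libraries (bars, 1 library each), with error bars giving the exact Poisson 95% interval. IGFBP6 and IGFBP7 stood higher in shAPC than in shScr at day 3 and lower at day 7, while IGFBP2, IGFBP3 and IGFBP4 were lower in shAPC at both days.

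The first comparison asked how the family differed between shAPC and shScr 3 days after transduction. IGFBP6 was 1.45-fold and IGFBP7 1.41-fold higher in shAPC, whereas IGFBP2, IGFBP3 and IGFBP4 were lower. The log2 ratios with exact conditional binomial 95% intervals were 0.54 (0.51 to 0.57) for IGFBP6 and 0.49 (0.46 to 0.53) for IGFBP7. They were -0.31 (-0.38 to -0.24) for IGFBP2, -0.29 (-0.36 to -0.23) for IGFBP3 and -0.17 (-0.21 to -0.14) for IGFBP4. A single cell held 277 of the 3213 IGFBP3 UMIs of shAPC day 3, a spread between cells that these intervals leave out. Of the 5 measured members, 0 reached a 2-fold ratio, against 4.85% of the 5175 genes that had 20 CPM or more in at least 1 library of the pair. The median log2 ratio was -0.17 over the members and 0.28 over all those genes. Relative to that median IGFBP6 and IGFBP7 were at 0.26 and 0.21, and IGFBP2, IGFBP3 and IGFBP4 at -0.59, -0.58 and -0.46. The TMM scaling shifted every ratio of this comparison by -0.38, which left IGFBP6 at 0.16 and IGFBP7 at 0.11 without a turn in direction. Averaging CPM over cells gave 0.31 for IGFBP6 and 0.21 for IGFBP7. The 4 detected epithelial markers were higher in shAPC in the same comparison, at log2 ratios from 0.59 to 0.97 (CLDN7), and of the 9 mesenchymal markers 5 had intervals above 0 and 4 below, and the part of such differences in the IGFBP values was not tested.

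For IGFBP2 and IGFBP3 the day 3 difference depended on which cells were summed. Over cells of 5000 to 50000 UMIs (397 of shScr, 225 of shAPC), a choice made after the data were seen, the log2 ratio was 0.01 (-0.14 to 0.15) for IGFBP2 and 0.29 (0.15 to 0.43) for IGFBP3, while IGFBP4, IGFBP6 and IGFBP7 kept their directions at -0.20, 0.46 and 0.34. In cells of at least 50000 UMIs, IGFBP2 was at 99.9 CPM in shScr and 74.8 CPM in shAPC, and IGFBP3 at 125 and 89.2 CPM. In those of 2000 to 20000 UMIs the order was the other way, at 50.9 and 83.0 CPM for IGFBP2 and at 66.3 and 88.2 CPM for IGFBP3, with intervals that overlapped for IGFBP3.

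At day 7 all 5 measured members were lower in shAPC than in shScr. IGFBP2 was 1.89-fold lower, with a log2 ratio of -0.92 (-1.04 to -0.80), and IGFBP7 was 1.76-fold lower, at -0.82 (-0.85 to -0.78). IGFBP6 followed at -0.67 (-0.72 to -0.62) and IGFBP3 at -0.55 (-0.63 to -0.46). IGFBP4 was at -0.11 (-0.16 to -0.06), close to the median of all genes. Again 0 of 5 reached a 2-fold ratio, beside 2.82% of 4573 genes. The median over the members was -0.67, beside -0.10 over all genes tested. The filters on genes, UMIs and mitochondrial share had together removed 51.3% of the barcodes of this shAPC library and 28.8% of those of shScr. Of the 9 mesenchymal markers 5 had intervals above 0, with COL1A2 2.27-fold and COL3A1 2.51-fold higher in shAPC, and 2 had intervals below 0, while the 4 epithelial markers were split, 2 above and 2 below. Their part in the IGFBP values was not tested. IGFBP2 reached 2-fold (log2 ratio -1.10) when barcodes of high mitochondrial share were included, and IGFBP2 and IGFBP6 did so (-1.33 and -1.03) when CPM was averaged over cells, a mean in which shallow cells weigh as much as deep ones. The latter gave -0.92 for IGFBP3. The 5 directions were the same under all the settings tried.

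**Figure D2:**
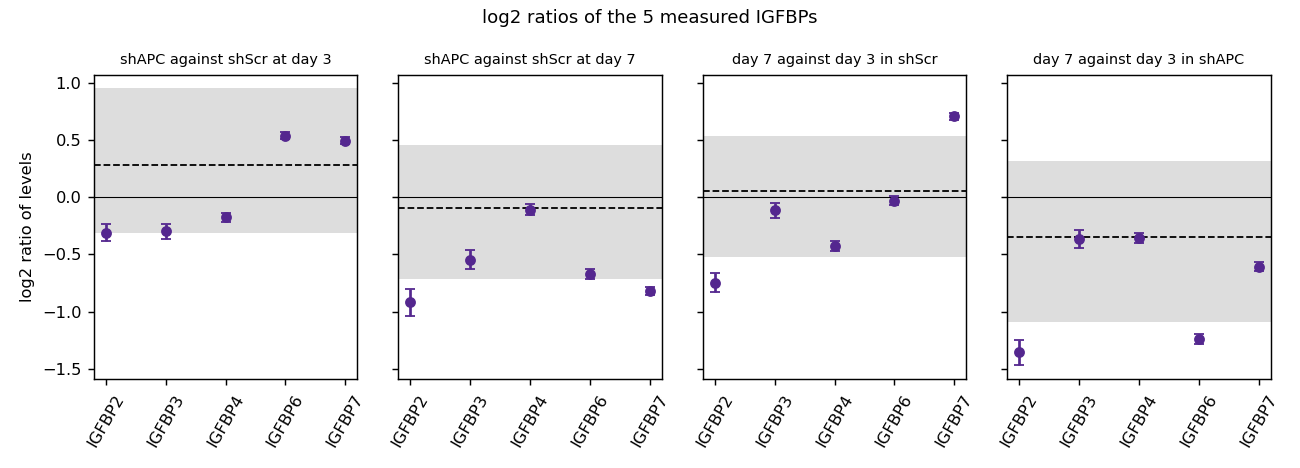
The log2 ratio (y axis) of the 5 measured IGFBPs in the 4 comparisons named above the panels, with the exact conditional binomial 95% interval. The dashed line is the median of all genes tested and the grey band their 5th to 95th percentile, and IGFBP2 lay below the band at day 7 and in both comparisons of day 7 with day 3. IGFBP7 lay below it at day 7 and above it in shScr between the days, and IGFBP6 lay below it in shAPC between the days.

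The change from day 3 to day 7 was compared within each hairpin; these ratios use the same 4 libraries as those above and are not independent of them. In shScr, IGFBP7 was 1.63-fold higher at day 7, with a log2 ratio of 0.71 (0.68 to 0.74), and IGFBP2 was 1.68-fold lower, at -0.75 (-0.83 to -0.67). IGFBP4 was lower by -0.42 (-0.47 to -0.38) on the log2 scale. IGFBP3 was at -0.11 (-0.18 to -0.05), and the interval of IGFBP6 held 0 (-0.03, -0.07 to 0.01). None of the 5 reached 2-fold, which 1.25% of 4556 genes did. The medians were -0.11 over the members and 0.05 over all genes.

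These values moved with the cells summed. Over cells of 5000 to 50000 UMIs the log2 ratio of IGFBP7 was 0.29 (0.24 to 0.34), and as a mean over cells of CPM it was 1.83. IGFBP3 turned to 0.19 (0.08 to 0.30) over the former cells and to 0.60 as a mean over cells, and the latter left IGFBP2 at -0.04. IGFBP6 came to -0.27 (-0.32 to -0.21) over the former cells and to 0.27 as a mean over cells.

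In shAPC, all 5 measured members were lower at day 7 than at day 3. IGFBP2 was 2.56-fold lower, at a log2 ratio of -1.36 (-1.47 to -1.24), and IGFBP6 2.36-fold lower, at -1.24 (-1.28 to -1.20). IGFBP7 was at -0.61 (-0.64 to -0.57), IGFBP3 at -0.37 (-0.45 to -0.28) and IGFBP4 at -0.36 (-0.40 to -0.31). Thus 2 of 5 were at least 2-fold lower, beside 6.47% of 5176 genes, and 6.59% of them differed 2-fold in either direction. The median of all genes was itself -0.34 here, that of the members -0.61, and IGFBP3 and IGFBP4 were at -0.02 and -0.01 relative to the former. With TMM, which shifted every ratio by 0.30, IGFBP6 came to -0.94 and IGFBP2 to -1.05, so that 1 member was past 2-fold. Relative to the median of all genes 1 member, IGFBP2 at -1.01, was also past it, beside 2.65% of all genes. As a mean over cells of CPM, IGFBP7 turned to 0.68.

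The shAPC/shScr ratio was set against itself between the days to see which members moved. The day 7 log2 ratio minus that of day 3 was -1.31 (-1.36 to -1.27) for IGFBP7 and -1.21 (-1.27 to -1.15) for IGFBP6, the pair whose direction turned. It was -0.61 (-0.75 to -0.47) for IGFBP2, -0.25 (-0.35 to -0.15) for IGFBP3 and 0.07 (0.01 to 0.13) for IGFBP4. Over 4448 genes measured at both days the median was -0.33, and 5.44% of them differed by at least 2-fold in either direction. Relative to the medians of all genes the differences were -0.93 for IGFBP7 and -0.83 for IGFBP6, both under 2-fold, where 2.72% of genes reached it. On that scale IGFBP2 was at -0.23, IGFBP4 at 0.45, and IGFBP3 turned to 0.13, and TMM gave -0.95, -0.84, -0.24, 0.43 and 0.12 for IGFBP7, IGFBP6, IGFBP2, IGFBP4 and IGFBP3. For IGFBP6 the level was lower in shAPC from day 3 to day 7 and close to level in shScr, whereas for IGFBP7 the 2 hairpins went opposite ways, except when CPM was averaged over cells. The 6 genes together gave 1216 and 1438 CPM in shScr and shAPC at day 3 and 1312 and 859 CPM at day 7, log2 ratios of 0.24 (0.22 to 0.26) and -0.61 (-0.63 to -0.59). The day 3 ratio of the total turned to -0.14 with TMM and to -0.04 relative to the median of all genes, so no direction is read from it.

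The share of cells with a UMI of each gene was taken after thinning each cell to 2000 UMIs, which left out 217 cells of shScr day 3, 115 of shAPC day 3, 1402 of shScr day 7 and 391 of shAPC day 7. IGFBP7 was found in 44.3% (41.0 to 47.6, exact binomial interval) and 49.8% (45.9 to 53.6) of shScr and shAPC cells at day 3, and in 53.3% (50.4 to 56.1) and 40.5% (37.5 to 43.5) at day 7. For IGFBP6 the shares were 46.1% (42.8 to 49.4) and 52.3% (48.5 to 56.1) at day 3 and 39.6% (36.8 to 42.4) and 30.3% (27.5 to 33.1) at day 7. The order of the levels was therefore seen in the shares too, with adjoining intervals that overlapped at day 3 and not at day 7.

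IGFBP2 was found in 13.9% (11.7 to 16.3) and 12.6% (10.2 to 15.4) of cells at day 3 and in 10.0% (8.37 to 11.9) and 5.24% (4.00 to 6.74) at day 7, so that its day 3 difference was within the intervals. IGFBP3 was found in 16.1% and 11.7% at day 3 and in 14.3% and 10.6% at day 7, and IGFBP4 in 44.4% and 37.7% and in 32.7% and 35.1%. The IGFBP4 share at day 7 went against its CPM at this depth, with intervals that overlapped (30.1 to 35.5 and 32.2 to 38.0). After thinning to 5000 UMIs it was 64.6% in shScr and 60.8% in shAPC, the order of the CPM, so no order is read from the shares. IGFBP5 was found in 0 of 899 and 0 of 673 cells at day 3, which at 3 cells allows up to 0.334% and 0.446% of cells with a UMI at this thinned depth, and in 1 of 1198 and 1 of 1087 cells at day 7. Without thinning the shares were 81.0%, 86.7%, 82.6% and 83.4% for IGFBP7 and 57.9%, 59.9%, 26.7% and 27.3% for IGFBP2 in the 4 libraries in that order. No cell type that should lack these genes was present, so the part of free RNA in the shares was not tested.

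**Figure D3:**
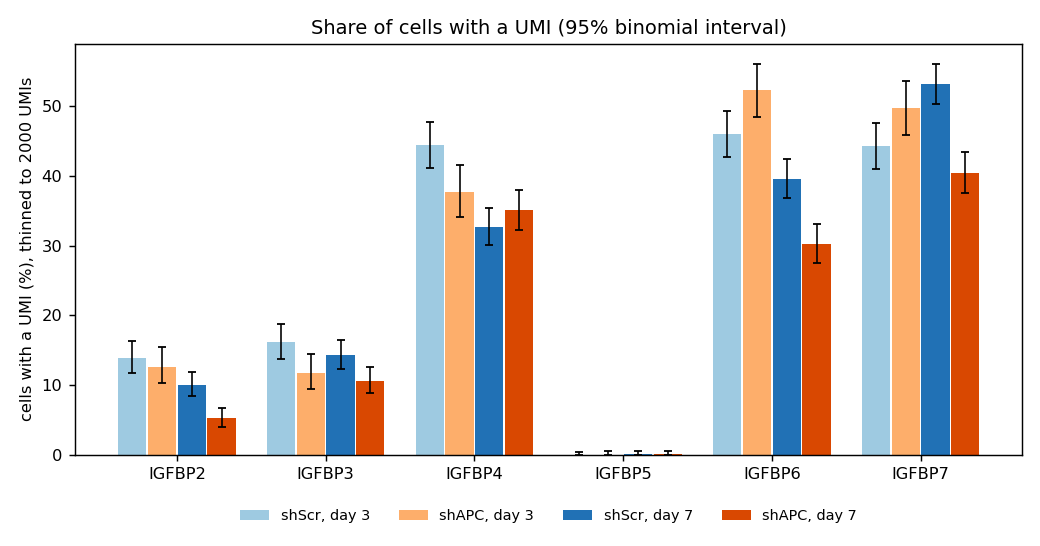
Share of cells with at least 1 UMI of each IGFBP (y axis, %) after thinning to 2000 UMIs, in 673 to 1198 cells per library, with exact binomial 95% intervals. IGFBP4, IGFBP6 and IGFBP7 were found in 30.3% to 53.3% of cells, IGFBP2 and IGFBP3 in 5.24% to 16.1%, and IGFBP5 in at most 1 cell of a library.

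The UMIs of IGFBP2 and IGFBP3 were held by fewer cells than those of the others. In cells thinned to 5000 UMIs, the 10% of cells with the most UMIs of a gene held 64.6% to 75.5% of the IGFBP3 UMIs and 56.4% to 83.3% of the IGFBP2 UMIs. The top 10% for the other 3 genes held 29.8% to 34.8% of IGFBP4, 34.9% to 41.0% of IGFBP6 and 36.1% to 43.1% of IGFBP7. These bounds are ranges over the 4 libraries, and a gene with fewer UMIs in all is gathered in fewer cells by counting alone. A single cell reached 71 thinned UMIs of IGFBP7 in shScr day 7 and 28 of IGFBP3 in shAPC day 3, beside medians of 2 and 0 in those libraries.

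Mitotic cells, taken as those with at least 3 UMIs of 12 mitotic genes after thinning to 5000, had less IGFBP3 than cells with none in each library. The log2 ratio of its CPM, mitotic over other cells, was -0.71 (-1.14 to -0.30) in shScr day 3, -1.54 (-1.95 to -1.16) in shScr day 7 and -0.96 (-1.52 to -0.44) in shAPC day 7. In shAPC day 3 the levels were 50.4 CPM in mitotic and 101 CPM in the other cells, with an interval of the ratio from -1.57 to -0.47. For the other 4 measured genes the same ratio lay between -0.57 and 0.01, and in shAPC day 7 the intervals of all 4 held 0. The mitotic cells numbered 139 to 268 per library. They come from the same library as the cells they were compared with, and the intervals treat UMIs as independent.

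Cell depth went along with the level of IGFBP7 at day 7. In kept cells under 2000 UMIs, IGFBP7 was at 838 CPM (721 to 969) in shScr day 3, 905 CPM (746 to 1088) in shAPC day 3, 2599 CPM (2503 to 2699) in shScr day 7 and 2105 CPM (1955 to 2263) in shAPC day 7. In cells of 20000 to 50000 UMIs it was at 360.1, 448, 427 and 285 CPM in the same order. The 4 libraries thus shared a high level in shallow cells, and it was higher in both day 7 libraries than in both of day 3. At the other end, the 71 cells of shScr day 7 and the 35 of shAPC day 7 with at least 50000 UMIs had 961 and 628 CPM.

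IGFBP6 was also higher in cells under 2000 UMIs, at 637 CPM and 793 CPM in shScr and shAPC at day 3 and 683 CPM and 421 CPM at day 7. In cells of 20000 to 50000 UMIs it was at 356 CPM and 477 CPM at day 3 and at 292 CPM and 188 CPM at day 7. In each of the 4 depth classes IGFBP6 and IGFBP7 were higher in shAPC at day 3 and lower in shAPC at day 7. IGFBP4 was between 162 and 376 CPM in all classes and libraries. What the shallow barcodes hold was not tested. The barcodes removed by any of the filters on genes, UMIs or mitochondrial share numbered 259 to 355 per library at day 3. They had IGFBP6 at 449 CPM in shScr and 357 CPM in shAPC and IGFBP7 at 449.8 and 336 CPM. Their order at day 3 was thus opposite to that of the kept cells, while with all deposited barcodes summed both genes stayed higher in shAPC, at log2 ratios of 0.43 and 0.39. At day 7 the removed barcodes had less of both genes in shAPC, as the kept cells did, at 314 and 177 CPM for IGFBP6 and at 549 and 272 CPM for IGFBP7.

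**Figure D4:**
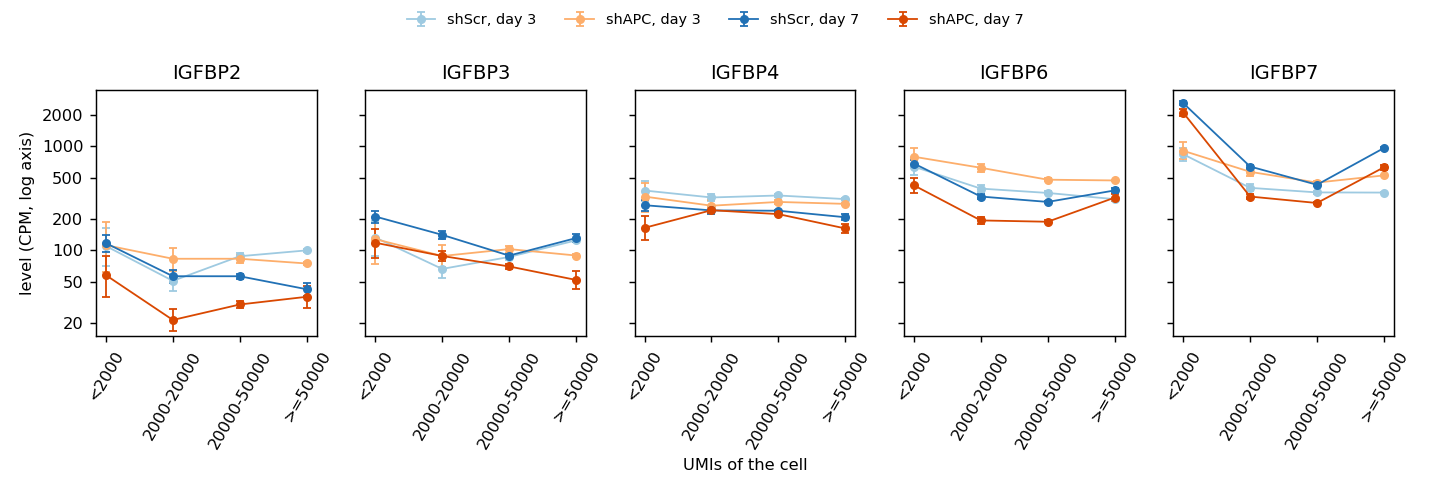
Level of the 5 measured IGFBPs in CPM (log axis) in kept cells grouped by their UMIs (x axis), for the 4 libraries, with exact Poisson 95% intervals. IGFBP7 reached 2599 and 2105 CPM in the cells under 2000 UMIs of the day 7 libraries and 838 and 905 CPM in those of day 3.

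The remaining IGF pathway was read from a list of 28 genes, of which 24 had more than 3 UMIs in 1 library and 15 exceeded 20 CPM. Ligand transcripts were next to absent. IGF1 and INS, with the carrier subunit IGFALS and the relative IGFBPL1, had 0 UMIs in all 4 libraries, which at 3 UMIs per library allows 0.0754 to 0.105 CPM. IGF2 had 2 and 3 UMIs at day 3 and 13 and 3 at day 7 in shScr and shAPC. IGFBP1, the liver-type binder 18584 bases from IGFBP3, had 7, 4, 2 and 0 UMIs in the 4 libraries in that order, and the iron carrier TF, transferrin, had 3, 5, 1 and 2.

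The receptors were present. IGF1R was at 22.5 to 24.7 CPM in all 4 libraries. Scaled by total UMIs, its shAPC/shScr intervals held 0, from -0.18 to 0.10 at day 3 and from -0.27 to 0.04 at day 7. Relative to the median of all genes its log2 ratio was -0.32 at day 3 and -0.02 at day 7, so the day 3 reading depended on the scaling. IGF2R, which clears IGF2, was at 32.6 to 50.5 CPM, with shAPC/shScr log2 ratios of 0.36 and 0.16 at the 2 days. INSR, the insulin receptor, was at 3.66 to 7.30 CPM and lower in shAPC at both days, at -0.70 (-1.02 to -0.38) and -0.61 (-0.93 to -0.30).

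Of the adaptors that pass the signal on, IRS1 was higher in shAPC at both days, by 0.95 (0.83 to 1.07) and 0.61 (0.48 to 0.74) on the log2 scale. IRS2 was at 0.65 and -0.07, SHC1 at -0.10 and -0.11, and GRB10 at 0.32 and 0.48. Day 3 ratios between 0 and 0.38 are negative with TMM, which holds for IGF2R and GRB10 here and for ADAM9, ADAM12, STC2, IGF2BP2, ITGB1 and KAZALD1 below. The same shift of -0.38 moves day 3 ratios just under 0, such as those of IGF1R, SHC1 and LRP1, further below it.

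Among the proteases that cut IGFBPs, PAPPA was at 71.1 and 64.4 CPM in shScr and shAPC at day 3 and at 99.6 and 121 CPM at day 7. The shAPC library was thus the lower one at day 3 (log2 ratio -0.14, -0.22 to -0.06) and the higher one at day 7 (0.29, 0.22 to 0.36), and from day 3 to day 7 it was higher by 0.49 in shScr and by 0.92 in shAPC. PAPPA2 had 39 to 142 UMIs and was higher in shAPC at both days, at 1.29 (0.86 to 1.74) and 1.42 (0.87 to 2.00). HTRA1 was at -0.14 and 0.11, ADAM9 at 0.16 and -0.13, and ADAM12 at 0.29 and 0.42. The stanniocalcins, which block PAPPA, were both expressed. STC1 was 2.03-fold higher in shAPC at day 3, at 95.5 CPM in shScr and 194 CPM in shAPC, and 1.73-fold higher at day 7, at 26.0 and 44.8 CPM. From day 3 to day 7 it was lower in both, by log2 ratios of -1.88 and -2.11. STC2 was at 343 to 459 CPM, with ratios of 0.36 and 0.14.

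The IGF2 mRNA binding proteins act on RNA and not on the ligand. IGF2BP3 was 2.61-fold higher in shAPC at day 3 (18.6 and 48.5 CPM) and 2.02-fold higher at day 7 (23.4 and 47.3 CPM). IGF2BP2 was at 0.13 and -0.28 on the log2 scale, and IGF2BP1 at 0.60 and 0.17. Of the surface partners of IGFBPs, the fibronectin receptor subunit ITGA5 was at 0.56 and 0.12 and its partner ITGB1 at 0.12 and 0.24. LRP1, a receptor described for IGFBP3, was at -0.06 and 0.58. KAZALD1, an IGFBP-related secreted protein, had 80 to 141 UMIs, with ratios of 0.13 and -0.29.

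By the 2-fold rule, 2 of the 15 genes over 20 CPM were higher in shAPC at day 3 (STC1 and IGF2BP3) and 1 at day 7 (IGF2BP3). With TMM the ratio of STC1 at day 3 was 0.64, below 2-fold, and that of IGF2BP3 lay at the threshold, at 1.00445 at day 3 and 0.998748 at day 7. For comparison, 4.43% of all genes tested were at least 2-fold higher at day 3 and 0.918% at day 7. From day 3 to day 7, STC1 was at least 2-fold lower in shScr, where 0.9% of all genes were, and STC1 and ITGA5 (-1.15) were in shAPC, where 6.47% of all genes were. ITGA5 came to -0.84 with TMM and to -0.80 relative to the median of all genes, both under 2-fold, while STC1 stayed past it at -1.81 and -1.77. The median shAPC/shScr log2 ratio of the pathway list was 0.16 at day 3, below the 0.28 of all genes, and -0.22 with TMM. At day 7 it was 0.14, above the -0.10 of all genes, and 0.13 with TMM.

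**Figure D5:**
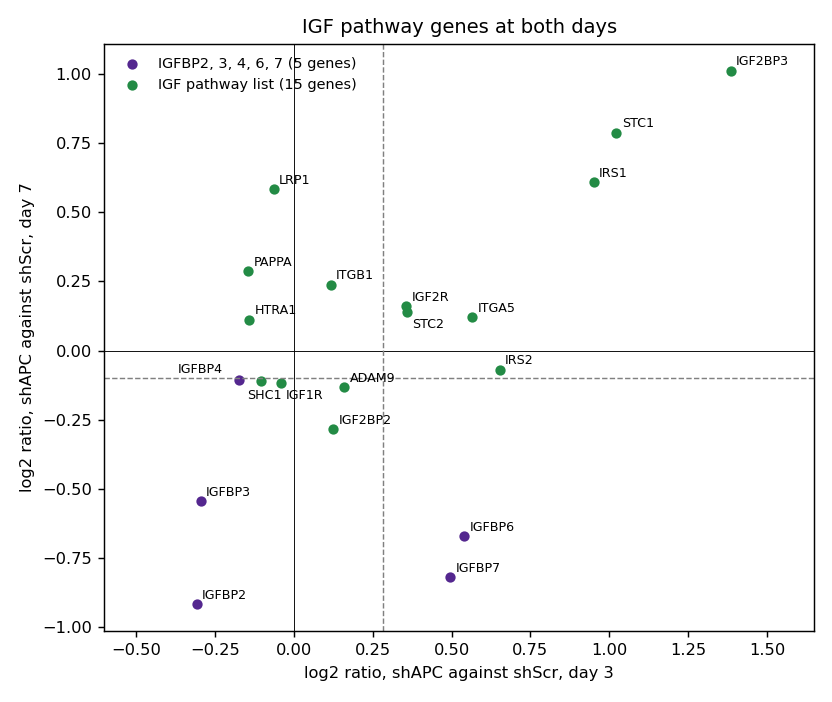
The shAPC/shScr log2 ratio at day 3 (x axis) and day 7 (y axis) of the 5 measured IGFBPs and the 15 genes of the IGF pathway list over 20 CPM, 1 point per gene, with the medians of all genes as dashed lines. IGFBP6 and IGFBP7 lay to the right of 0 and below it, and IGF2BP3, STC1 and IRS1 lay above 0 on both axes.

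Across cells, the correlations between the 5 measured genes were low, apart from one pair. Pearson's r of log2(thinned UMIs + 1), over 616 to 1036 cells thinned to 5000 UMIs, was 0.26, 0.29, 0.29 and 0.20 for IGFBP6 with IGFBP7 in the 4 libraries in that order. The other 9 pairs lay between -0.04 and 0.16. Cells of a library share its preparation, so these values are descriptions. The mean count per thinned cell ran from 0.157 (IGFBP2, shAPC day 7) to 2.53 UMIs (IGFBP7, shScr day 7). Counting error at such counts lowers r, so a low r does not show that 2 genes vary separately.

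Among 3727 genes with a mean of at least 0.1 thinned UMIs per cell in each library, those with the highest mean r over the 4 libraries were named for each member, up to 3 each. For IGFBP7 they were TIMP1, an inhibitor of matrix metalloproteinases (mean r 0.42), CYBA, a subunit of NADPH oxidase (0.40), and the tetraspanin CD63 (0.38). For IGFBP6 they were the same genes in another order, CD63 (0.34), TIMP1 (0.33) and CYBA (0.29). IGFBP3 was nearest to LOX, which cross-links collagen (0.31), followed by the secreted glycoprotein MFGE8 (0.24). IGFBP4 was nearest to COL1A1 (0.22) and COL1A2 (0.21), the chains of type I collagen, and to the monooxygenase CYP1B1 (0.20). IGFBP2 was nearest to fibronectin, FN1 (0.17), MFGE8 (0.13) and FBLN5 (0.13), a protein of elastic fibres, and these are weak values. In shAPC day 7 its r was 0.08 with FN1, -0.0005 with MFGE8 and 0.05 with FBLN5. IGFBP5 had too few UMIs for such a list.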

How the data were processed

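Single cells were profiled by 3′ sequencing on the 10x Chromium platform, with 1 library per group. The authors aligned the reads to hg38 and deposited raw UMI counts per gene and cell barcode, made with Cell Ranger. Per the file headers these counts were written by version 3.0.2 in the shScr pair and by 3.0.0 in the shAPC pair, so software version and hairpin cannot be told apart. The labels call the virus retroviral and the kit v2, the methods lentiviral and V3. The annotation release is not given in the sources used here.

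A barcode counted as a cell when it had 200 or more genes, 500 or more UMIs and a mitochondrial share below 5%, which removed 24.1% to 28.8% of 3 libraries and 51.3% of shAPC day 7. No doublets were removed, and leaving out the deepest 5% of cells served as an alternative. The pair of day 3 libraries shared 19 kept barcodes, the pair of day 7 libraries 4 and the other pairs 1 to 7, and leaving them out served as an alternative. UMIs were summed per library and scaled by total UMIs. CPM have exact Poisson, ratios exact conditional binomial and shares Clopper-Pearson 95% intervals, all for counting error only. No pseudocount was used, a count of 0 was set to 3 UMIs, and no ratio was taken where both counts were at or under 3. A ratio was called at 2-fold among genes that had 20 CPM or more in at least 1 library of the pair. The procedure was run on simulated Poisson counts, with no variation between cells and with planted changes well past 2-fold. This checks the arithmetic, and it tests neither smaller ratios nor the spread between cells. The sums were scaled with edgeR 4.0.16 (TMM) and DESeq2 1.42.0 size factors as alternatives only. Promoters came from RefSeq (GRCh38.p14) and positions from GENCODE 44, the build of the files. IGF2 is listed under 2 identifiers, and the one paired with that symbol was used.

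The 6 genes, the pathway list and the marker lists were chosen with earlier results of these data known. Named genes are the 6 members, the pathway genes with at least 4 UMIs in 1 library, the 3 genes nearest to each member across cells, and APC; 1 of the nearest genes is not reported here. The study's imputation and batch correction were not applied.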

Additional observations from a re-analysis of the deposited data

Results flagged for a closer look

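IGFBP6 and IGFBP7 had opposite directions at the 2 days, higher in shAPC than in shScr at day 3 and lower at day 7. The shAPC/shScr log2 ratio at day 7 minus that at day 3 was -1.21 for IGFBP6 and -1.31 for IGFBP7, with counting intervals of -1.27 to -1.15 and -1.36 to -1.27. Relative to the medians of all genes the values were -0.83 and -0.93, and with TMM -0.84 and -0.95, all under 2-fold. Each group holds 1 library, so the difference between the days was not tested against the variation of libraries. Both genes kept the opposite directions under every setting tried, with the day 3 ratio lowest under TMM (0.16 and 0.11). In the barcodes removed by the filters at day 3, both genes were lower in shAPC, at 357 and 449 CPM for IGFBP6 and at 336 and 449.8 CPM for IGFBP7 in shAPC and shScr.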

How the results depend on the processing

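No paired analysis was possible because each group holds 1 library, and leaving out a replicate was not possible for the same reason. Of the shAPC/shScr ratios of the 5 measured genes, those of day 7 and those of IGFBP4, IGFBP6 and IGFBP7 at day 3 kept their direction under all 13 settings tried. The day 7 ratio of IGFBP4 came as close to 0 as -0.0099, relative to the median of all genes. At day 3, in cells of 5000 to 50000 UMIs, a choice added after seeing the data, IGFBP2 turned to 0.39 (-0.01 to 0.78) with thinning to 5000 UMIs and to 0.0052 without, and IGFBP3 to 0.28 (-0.08 to 0.64) and 0.29. From day 3 to day 7 in shScr, IGFBP3 turned to 0.065 with all barcodes, 0.041 with a mitochondrial limit of 10%, 0.60 as a mean over cells of CPM, and 0.36 and 0.19 in cells of 5000 to 50000 UMIs with and without thinning. IGFBP6, whose interval held 0, came to 0.27 as such a mean, and to -0.23 and -0.27 in cells of 5000 to 50000 UMIs with and without thinning. In shAPC, IGFBP7 turned to 0.68 as a mean over cells of CPM. The correlation of IGFBP3 with IGFBP4 in shAPC day 3 turned to -0.0033 with thinning to 2000 UMIs, 1 of 6 among 40 correlations that changed sign there, which lay between -0.04 and 0.10 at 5000 UMIs. The causes were not tested.

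The number of members at 2-fold at day 7 went from 0 to 1 with all barcodes and 1 with the limit of 10%, and to 2 as a mean over cells. From day 3 to day 7 it went from 0 to 1 in shScr as a mean over cells, and in shAPC from 2 to 1 with TMM, under the scaling of DESeq2 and when the all-gene median was subtracted. The count of all genes at 2-fold moved with the minimum level by construction, from 251 to 42 at 100 CPM and 2821 with no minimum at day 3, from 129 to 37 and 2198 at day 7, from 57 to 20 and 1537 in shScr between the days, and from 341 to 70 and 2599 in shAPC. In the last it was 178 with TMM, 178 with DESeq2 size factors and 222 with totals that leave out mitochondrial and ribosomal protein genes. IGFBP5, at 1 to 9 UMIs, was limited by depth.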
